A study of Drosophila melanogaster with 2 samples.

Results

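The genes hid, grim, rpr (reaper) and skl (sickle) lie in this order on chromosome arm 3L of Drosophila melanogaster and form the fly's cluster of cell death genes. Regions of Deformed enrichment in and around the cluster were chosen by position: a region belonged if its centre lay between 18.13 and 18.46 Mb on 3L, a window of 330 kb that was set on the view that the deposited coordinates follow Release 5 of the genome. The window held 16 of the 3944 distinct regions of both deposited lists: 16 of 3898 in the larger list, called at a p-value cutoff of 0.001, and 4 of 1079 in the stricter list, called at 0.0001. Every one of the 4 stricter regions overlapped one of the 16. The data came from chromatin immunoprecipitation and sequencing (ChIP-seq) of whole wild-type Oregon R embryos of 5 to 9.5 hours, at stages 9 to 12, in 1 library with a guinea pig antibody to Deformed and 1 mock library with guinea pig IgG. After the caller's duplicate filter they held 15547495 and 12694075 tags. With 1 library in each group no value has a replicate error and no test between libraries was possible, so every difference below compares places within 1 experiment. Stage and strain were the same for both libraries, which differed in the antibody, and whole embryos mix cells that express Deformed with a majority that do not.

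The proteins of the 4 genes trigger apoptosis. Each carries a short motif at its amino end that binds the inhibitor of apoptosis Diap1 and thereby frees the caspase Dronc and its downstream effector caspases. Their transcription helps to determine which embryonic cells die, and long stretches of non-coding DNA around them carry enhancers that shape this pattern. Hox proteins are among the regulators: Deformed, which specifies the mandibular and maxillary segments of the head, is known to activate rpr at the border between these segments, where cell death shapes the head. In the gene table at hand, hid (CG5123) was followed by 4 protein-coding genes, CG7320, CheA75a, CG5103 and CG13700, before grim (CG4345). No protein-coding gene stood between grim and rpr (CG4319), only 2 long non-coding RNAs and 1 antisense RNA, and only 1 long non-coding RNA stood between rpr and skl (CG13701). That table is on Release 6, so it gives names and neighbours here, and the distance of any region to any of the 4 genes was not determined. All positions below are those of the authors' deposited lists.

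The strongest enrichment of the window was a single region at 18384351 to 18385033. It was 683 bases long and held 132 Deformed tags (95% Poisson interval 110 to 157). Its deposited fold, tags at the summit over the caller's local background, was 8.83, and its score, the caller's −10 log10(p), was 384.66. These values were the same in both lists. It ranked 16 of 1079 by score in the stricter list and 18 of 3898 in the larger list. The summit lay close to the middle, at 52.3% of the length from the lower end.

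A second region lay 9.13 kb farther along, from summit to summit, at 18393697 to 18393924. It was 228 bases long, with 34 tags (95% Poisson interval 23.5 to 47.5), a fold of 5.43 and a score of 91.31, again with the same ends and values in both lists. It ranked 129 in the stricter list. The tag intervals of these neighbours do not overlap, but the longer region had more room for tags. Per 100 bases the first held 19.3 tags (interval 16.2 to 22.9) and the second 14.9 (10.3 to 20.8), and these intervals do overlap.

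The other stricter regions were weaker and their ends depended on the list. That at 18349414 to 18349605 had 23 tags (95% Poisson interval 14.6 to 34.5), a fold of 4.67, a score of 52.32 and rank 430. In the larger list it ran on to 18349650, with 29 tags and a score of 64.67. That at 18156762 to 18156954 had 24 tags (15.4 to 35.7), a fold of 5.03, a score of 43.50 and rank 783. The larger list started it at 18156741, with 25 tags, a fold of 5.35 and a score of 44.72. Both lists count the same library, and each larger-list region contains its stricter counterpart. The paired counts thus share tags, and their closeness is no agreement. The intervals given cover counting error only.

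**Figure D1:**
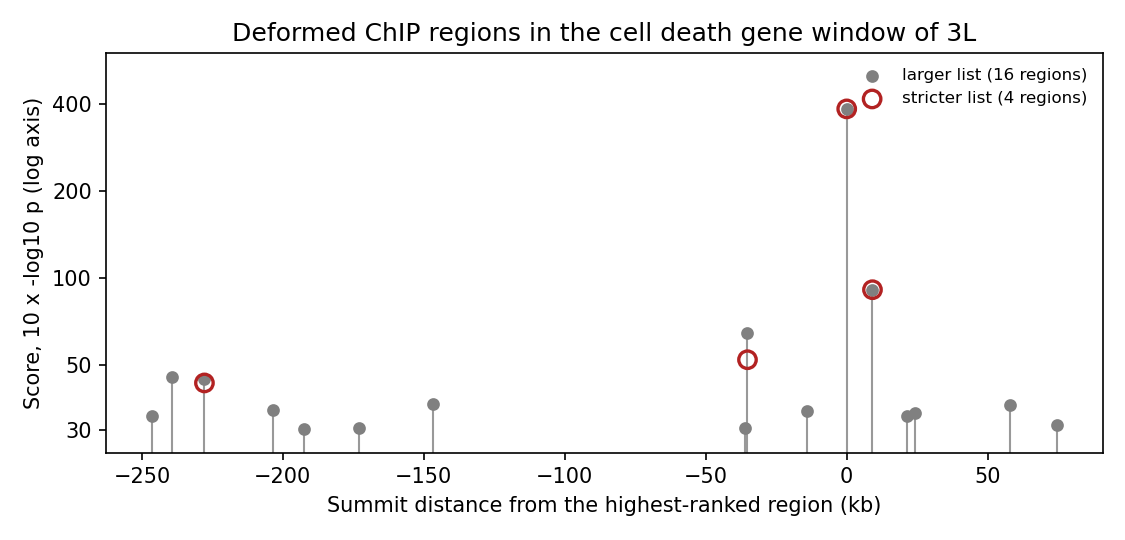
Score of each window region (vertical log axis, −10 log10 of the caller's p) against the distance of its summit from that of the highest-ranked region, in kb. Grey points are the 16 regions of the larger list and red rings the 4 of the stricter list. The region at 0 stands at 384.66, the one 9.13 kb to its right at 91.31, and no other region of the window passes 64.67.

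The 12 places called only in the larger list were 115 to 228 bases long and had 14 to 26 tags each, with scores from 30.27 to 45.70. The highest of them, at 18145467 to 18145650, ranked 799 with 21 tags, a fold of 4.20 and a score of 45.70, which is above the value of 40 that corresponds to the stricter cutoff, yet the stricter list did not hold it. The lowest, at 18192096 to 18192303, ranked 3809 with 19 tags and a fold of 4.67. The highest folds among them, 6.07 each, belonged to the regions at 18180916 to 18181119, which ranked 2195 with 20 tags, and at 18237912 to 18238139, which ranked 1891 with 22 tags. These folds were higher than the 5.43 of the region ranked 129, while their scores of 35.20 and 36.70 were far lower. A fold of exactly 6.07 was shared by 62 regions of the larger list and one of exactly 4.67 by 318, so folds of weak regions came in few distinct values and separate them only coarsely.

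The remaining 8 were of the same kind. At the lower end of the window, the region at 18138020 to 18138245 ranked 2637, with 26 tags and the window's lowest fold of 3.48. Farther along, 18211639 to 18211821 ranked 3704 with 20 tags and a fold of 3.84. Next to the stricter region ranked 430, the stretch from 18348438 to 18348622 ranked 3740 with 18 tags and a fold of 4.49. The shortest region of the window, 115 bases at 18370428 to 18370542, ranked 2289 with 14 tags and a fold of 4.86, and it was the nearest called place on the lower side of the strongest region. Beyond the strongest pair, 18406123 to 18406296 ranked 2607 with 19 tags and a fold of 4.16, and 18408855 to 18409015 ranked 2473 with 17 tags and a fold of 4.12. The region at 18442393 to 18442577 ranked 1918 with 19 tags and a fold of 4.20. At the upper edge, 18459329 to 18459488 ranked 3396 with 16 tags and a fold of 3.74. None of the 8 had a score above 36.49. The window ended in places of no special strength: the nearest larger-list regions outside it, at 18116558 to 18116678 and 18490386 to 18490590, had 13 and 19 tags and scores of 30.09 and 31.02, while the outermost inside it had scores of 33.44 and 31.16.

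Measured against the whole list, the window did not keep more of its regions at the stricter cutoff than other places. Of its 16 larger-list regions 4, or 25% (95% exact interval 7.27 to 52.4), overlapped a stricter region, where 26.4% of all larger-list regions did. Of the 16, 5 had a score of at least 40, against 33.8% of the list. Their median fold was 4.58 and their median tag count 20, beside 4.48 and 22 over the whole larger list. The authors' false discovery rate (FDR) was below 100% for 1 of the 4 stricter regions, the one ranked 16, while 1.85% of all stricter regions had such a value. It was 18.75% there and 27.78% in the larger list, where 0.539% of regions were below 100%. As MACS defines this rate, these percentages amount to 3 and 5 regions of the opposite direction, control over Deformed, at the same score or better. The other 15 places, and thus the remaining 3 stricter regions, had an FDR of 100%.

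Tag density set the highest-ranked region apart less clearly than score did. The Deformed library averaged 13.0 tags per 100 bases of the effective genome. That average counts all filtered tags, those of dense regions near centromeres included, and is not the local background used for the folds. In 14 of the 16 larger-list regions the density was below this average, as in 84.2% of the list. The highest-ranked region had 1.49 times the average, and it was the only one of the 16 whose counting interval lay wholly above it. Its larger tag count also makes that interval narrower for its value, and the interval overlaps that of the region ranked 129. The intervals of the other 15 held the average, with values from 0.71 to 1.15 times. Their folds over the local background were 3.48 to 6.07, so a density near the average does not mean that enrichment was absent. The single region carried 132 of the 451 tags of the 16, 29.3%, and 62.0% of the 213 tags of the stricter 4. It was also long, with 683 of the 3575 bases of the 16 and of the 1296 bases of the stricter 4. Part of its share thus reflects length.

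**Figure D2:**
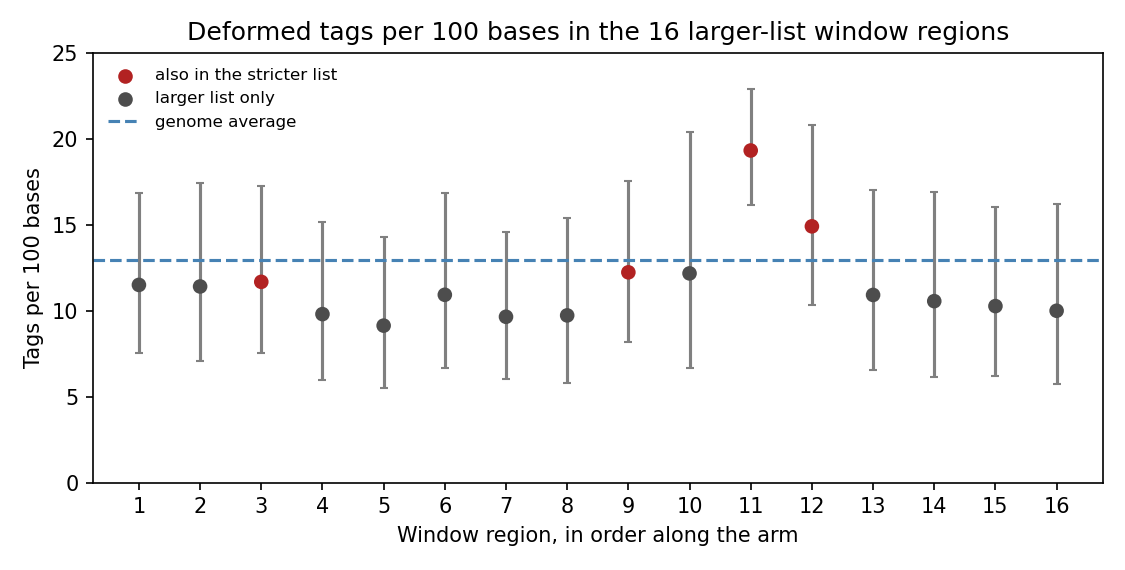
Deformed tags per 100 bases (vertical axis) in the 16 larger-list regions of the window, numbered along the arm. Bars are 95% Poisson intervals of the tag count, red points are regions also in the stricter list, and the dashed line is the genome average of 13.0. Region 11, at 19.3, has the only interval that lies wholly above the line.

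The regions were spaced unevenly along the window. A stretch of 110 kb, from 18238139 to 18348438, held none of them and split the window into 7 regions on the lower side and 9 on the upper. Of the 9, 7 stood within 60.6 kb, from 18348438 to 18409015, and these included 3 of the 4 stricter regions, which together spanned 44.5 kb. The highest-ranked region had 13.8 kb of uncalled sequence on its lower side and 8.66 kb on its upper side. The stretch was picked out after its regions were seen.

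In number, the window was within the range of the arm. It held 4.85 larger-list regions per 100 kb (95% Poisson interval 2.77 to 7.87), and the rest of 3L without the 2 Mb next to the centromere held 3.17, a value inside that interval. For stricter regions the densities were 1.21 (0.33 to 3.10) and 0.67 per 100 kb. When that part of the arm was divided into stretches of the window's length, the other 66 had a median of 10 larger-list regions, from 3 to 24, and 9 of them had 16 or more. The stricter median was 2, from 0 to 8, and 12 of the 66 had 4 or more.

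**Figure D3:**
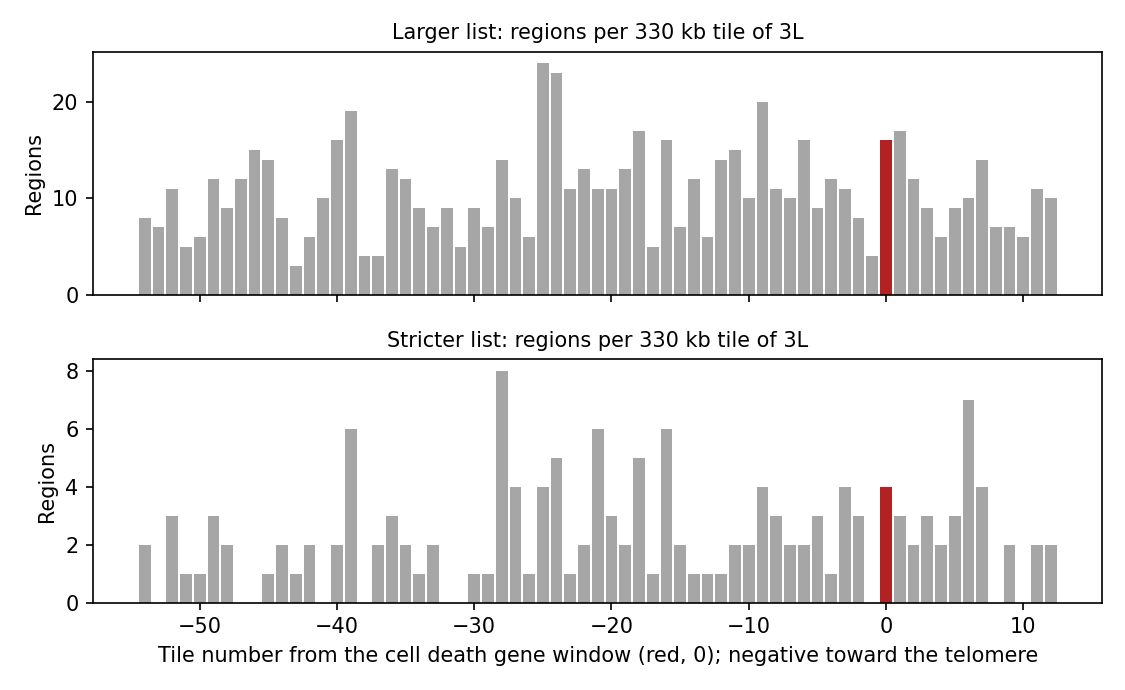
Number of regions (vertical axes, starting at 0) in consecutive 330 kb stretches of 3L outside the 2 Mb next to the centromere, for the larger list above and the stricter list below. The cell death gene window, in red, holds 16 and 4 regions, and 9 and 12 of the other 66 stretches hold as many or more.

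In score, by contrast, 1 region of the window was the highest on this part of the arm. The window was chosen with earlier results of these data known, so this position is no independent result. Within the excluded 2 Mb, the 3L regions ranked 5 and 15 had higher scores, 986.58 and 405.27. No other 3L region outside the 2 Mb next to the centromere had an FDR below 100%. The next by score there, at 9097557 to 9098255, ranked 111, with 106 tags on 699 bases, a fold of 4.34 and a score of 103.47. It was thus about as long as the window's region and held fewer tags, at a lower fold and a lower score.

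The window's strongest region held fewer tags at a higher fold than regions of similar rank. The 35 stricter regions up to 20 ranks above or below it held a median of 478 tags, from 207 to 4708, on a median of 1073 bases, and none held as few as 132. It had the fewest tags of the 43 highest-ranked regions. The region ranked 15, on 3L near the centromere at 24448172 to 24449402, had 813 tags and a fold of 2.72, and the region ranked 17, on 2R, had 666 and a fold of 4.01. Per 100 bases the 35 had a median of 50.5 tags, from 26.1 to 117, against 19.3 in the window's region, a ratio of 0.38. Its fold ran the other way, at 1.83 times their median of 4.83, and only 3 of the 35 had a higher one. Score rests on tags over the local background. At a similar score fewer tags go with a higher fold, so the low tag count and the high fold are not separate results.

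Many regions of that rank lay next to a centromere or on chromosome 4, so the comparison was repeated without these, at limits and ranks partly chosen after seeing the data. Of the 35 regions, 11 lay outside the proximal 2 Mb and chromosome 4. They had a median of 51.3 tags per 100 bases, which gave a ratio of 0.38, and none of them was as low as the window's region. With the proximal 3 Mb left out 6 remained, with a median of 45.6 and a ratio of 0.42, and again none was as low. The fold was 1.84 and 1.497 times their medians. Both sets included the X regions ranked 1 and 3, with folds of 25.21 and 16.34, which weigh most in the set of 6. Filling these sets up to 20 regions below the window's region meant going down to ranks 125 and 145. The density ratio was then 0.50 over 28 regions, of which 4 had a lower density, and 0.67 over 23 regions, of which 9 had. These wider sets hold mostly regions of much lower rank, and over them the fold was 1.83 and 1.61 times the median.

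Regions with about as many tags were compared as well. In the stricter list 28 other regions had a tag count within the counting interval of the 132. Their median score was 85.5 and their highest 176, against 384.66. Their median fold was 4.68 and their highest 8.63, against 8.83, at a median length of 579 bases. Among regions of its own tag count, it was thus the highest in both score and fold. The order in score follows from the comparison above and is no separate result, since no other of the 43 highest-ranked regions had a tag count in that interval. Score and fold both rest on tags over the local background, so the order in fold is not independent of it.

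Tags per 100 bases divided by the fold give a rough index of how much background lay under a region. It was 2.19 in the window's strongest region and had a median of 10.8 in the 35 of similar rank. Among the 36 highest-ranked regions only 3 had an index below 3. The other 2 were the pair on X, at 2683986 to 2687295 and 2689944 to 2690810, which ranked 1 and 3 with folds of 25.21 and 16.34 and had indices of 2.03 and 2.32. The next lowest was 3.38, so the limit of 3 falls in the gap between these regions and the rest. The index is made from the density and the fold given above and is no separate result. Low indices were common farther down the list, since 64.3% of all stricter regions were below 3, and the remaining 3 stricter regions of the window had 2.47 to 2.75. The X pair held 51.3 and 37.8 tags per 100 bases, well above the 19.3 of the window's region, whose fold and density were both the lowest of the 3.

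**Figure D4:**
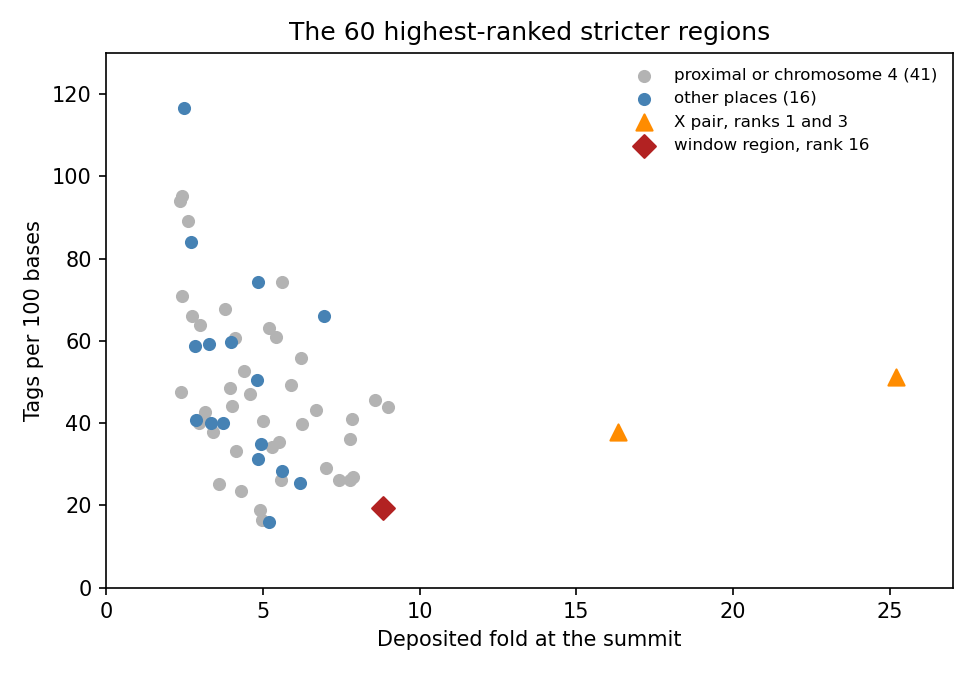
Tags per 100 bases (vertical axis) against the deposited fold at the summit (horizontal axis) for the 60 highest-ranked stricter regions. The red diamond is the window's region ranked 16, at a fold of 8.83 and 19.3 tags per 100 bases, the orange triangles are the X pair, and grey and blue points are regions near centromeres or on chromosome 4 and at other places. The red diamond lies at the lower edge of the points and to the right of most.

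The study tested bound DNA in reporter constructs, and plasmids that carry such DNA can add tags of the same sequence to a library. Neither list tells tags of embryo chromatin from tags of plasmid DNA, and a contribution of plasmid DNA to the 132 tags was not tested. The values above describe the region only. It had 683 bases, a summit near the middle, the nearest called place 8.66 kb away and a density 1.49 times the genome average. Its index was 2.19, and 64.3% of all stricter regions had an index below 3. Tag counts of the mock library in the region were not used here.

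The other regions of the window mostly lay within the ranges of their own ranks. Of the other 15 larger-list regions, 14 had tags per 100 bases within the range of the regions up to 20 ranks away, and all 15 had a fold within it. The exception, at 18237912 to 18238139, had 9.65 tags per 100 bases where its 40 neighbours in rank had 9.79 to 17.2. Beside the 40 stricter regions nearest in rank, the region ranked 129 had 14.9 tags per 100 bases against a median of 24.7 (range 11.4 to 71.4), and a fold of 5.43 against 5.57. Its 34 tags were fewer than in any of the 40, which held 41 to 293, so low tag counts for the rank were seen in both neighbours. The regions ranked 430 and 783 had 12.0 and 12.4 tags per 100 bases against medians of 13.1 and 12.0, and folds of 4.67 and 5.03 against 5.38 and 4.67. Neither stood apart from regions of its rank by these values.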

How the data were processed

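The aligner was Bowtie, per the submitters' processing notes. Its version was not given in the sources used here, nor was the build. Regions were called with MACS 1.4.0beta, Deformed against IgG, per the file headers. Settings were d = 50 bases, a tag size of 40, an effective genome of 120 Mb and at most 4 (Deformed) and 3 (control) tags kept at a position, which cost the Deformed library 22.7% of its tags and the control 2.48%. The p-value cutoff was 0.001 for the larger and 0.0001 for the stricter list. Each region's tag count, significance score, fold ratio and FDR percent are the authors' deposited values.

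Ranks follow the score, with ties broken by fold and by tags, and regions within 20 ranks on each side served for comparison. In the Release 6 gene list, 38 of 3482 genes on 3L started past the last deposited region, so no gene coordinates were used, no sequence was read, and further apoptosis genes (th, Dronc, Dark, Drice, Dcp-1, Bruce, Diap2, Debcl and Buffy) were not looked up. All regions of the window were named, with the neighbours in rank and the X pair. The window and its genes were chosen with earlier results of these data known. Tag intervals are exact Poisson and shares exact binomial intervals at 95%. The steps were checked on simulated lists. Python 3.11.15 was used with scipy 1.17.1, pandas 2.3.3, numpy 2.4.6 and matplotlib 3.10.9.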

Additional observations from a re-analysis of the deposited data

How the results depend on the processing

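Of 20 recomputed values, 15 stayed close to the reported one (a count by less than 1.5 times, a ratio or share inside its 95% counting interval). The number of regions in the window rose from 4 to 16 in the larger list, was 5 there at a score of at least 40, stayed at 4 when any shared base counted or the window was 50 kb wider on each side, and fell to 3 after merging regions less than 10 kb apart. The tag density of the highest-ranked region relative to similar ranks was 0.38, and 0.38 and 0.42 when regions within 20 ranks were kept without chromosome 4 and the proximal 2 or 3 Mb. In the larger list it was 0.40. With 10 ranks on each side it was 0.32, at the lower end of its counting interval, and with 50 it moved to 0.47, so the density ratio rose with the width of the rank set. It also moved to 0.50 (2 Mb) and 0.67 (3 Mb) when these sets were filled up with lower ranks, down to 125 and 145. The fold of that region relative to similar ranks was 1.61 to 1.84, except 1.497 within 20 ranks without the proximal 3 Mb. There 6 regions were left, the X pair among them. The 3 Mb limit and both sets kept within 20 ranks were chosen after seeing the data. Both lists come from the same libraries, so agreement between them is no replicate. Counts of 14 to 34 tags limit what the weaker regions show. No paired analysis was possible because each group holds 1 library and no result comes from a test.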
